A study of Mus musculus with 36 samples.

Results

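Gut dissected from mouse embryos at E10.5 and lacking Ret RNA was compared with wild-type gut of the same stage. The comparison took 9 of the 36 RNA-seq libraries of a study of gut that spans E10.5 to E14.5. On the null side stood the 3 libraries labelled Ret Null, whose Ret RNA lay under 1 FPKM (fragments scaled by transcript length and sequencing depth). All 3 were labelled male. On the other side stood all 6 libraries labelled wild type, 3 labelled female and 3 labelled male, numbered 3 to 5. Both groups were labelled C57BL/6J, and no agent or further allele is named; the kind of Ret allele, the litters, any pooling of embryos and the exact ends of the dissected gut are not stated by the labels.

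Ret is the receptor tyrosine kinase through which GDNF, secreted by the gut mesenchyme, guides enteric neural crest cells into and along the gut, where they form the enteric nervous system. At the same stage the endoderm releases Sonic and Indian hedgehog, which act on the surrounding mesenchyme through Gli transcription factors and forkhead factors, and the first smooth muscle forms around the foregut. Enteric crest cells are a small part of the early gut, so most RNA in such samples comes from endoderm, mesenchyme, vessels and blood.

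Ret had 0.0217, 0.0509 and 0.0123 FPKM in null males 1, 2 and 3, against 5.41, 5.81 and 2.11 FPKM in wild-type females 1, 2 and 3 and 6.70, 6.64 and 7.34 FPKM in wild-type males 3, 4 and 5. The null libraries were chosen by these Ret values, so the gap is a description and carries no test. The highest value inside the rule was 0.0509 FPKM. Outside it lay the 3 E10.5 libraries labelled null and female, at 4.74 to 5.76 FPKM, which were left out. The labels alone pick the same 3 libraries, as these are every E10.5 library labelled null and male.

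Interval widths in the deposited files imply a depth of 7.38 to 8.65 M fragments in null libraries, against 15.3 to 20.2 M in wild-type females and 7.52 to 8.21 M in wild-type males. Between 12581 and 12968 genes reached 1 FPKM in the 9 libraries. Wild-type females 1 and 2 differed by 0.936 times the counting noise and wild-type males 3 and 4 by 0.964 times, where the other pairs within a group differed by 1.36 to 2.61 times. Each of these pairs was averaged and counted as 1 sample, which left 3 null and 4 wild-type samples. No label ties a library to its own embryo. The p-values therefore reflect only variation among these samples, possibly technical. Null male 1 had 66.1 FPKM of Xist and 0 FPKM of Ddx3y, the pattern of female RNA, against its label. Null female 3, left out for its Ret, had the reverse mismatch, with 0.911 FPKM of Xist and 13.5 FPKM of Ddx3y. Whether these labels were exchanged was not tested. Markers of gut epithelium (Epcam), mesenchyme (Foxf1) and smooth muscle (Acta2) were present in every library.

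Genes of the endoderm, the stomach and hedgehog signalling were among those that rose in null gut, and more genes rose than fell. Of 13036 genes tested, 103 rose (0.79%) and 37 fell (0.284%) at an adjusted p under 0.05, 140 in all (1.07%); Ret is 1 of the 37 and only restates the choice of libraries. The values were tested with limma on log2(FPKM + 1), so a fold change understates the change of a gene near or below 1 FPKM. Only genes with 1 FPKM in at least 3 samples were tested. Among genes named below, Cym, Nkx6-3, Agr2, Sox21, Lmod1, Masp2, Zfp534 and Gm13154 reached that only through the 3 null samples. Their p-values are given as description and add no support to a rise. At an unadjusted p under 0.05 stood 2906 genes (22.3%), and the median log2 fold change over all genes was 0.02. Groups did not overlap for 3088 genes (23.7%), 1894 of them higher in null and 1194 lower (9.16%). The adjusted calls lay close to the threshold. With null male 1 left out no gene passed (1741 at an unadjusted p under 0.05). With null male 2 or with null male 3 left out, 1 gene passed (2139 and 1751 at an unadjusted p under 0.05), the predicted gene Gm10653 each time. Without wild-type females 1 and 2, wild-type males 3 and 4 or wild-type male 5, 22, 77 and 58 genes passed. Within libraries labelled male, where the wild-type side is 2 samples, 299 of 12787 genes passed (2.34%), 205 up and 94 down. Of these, 109 were among the 140. With labelled sex as a term 67 genes passed, 43 of them among the 140. Under median-of-ratios scaling 115 genes rose and 83 fell, a split nearer to even than that of the values as deposited. With the replicate number as a block and every library counted, 50 rose and 66 fell. The gut epithelium and stomach folds moved less than the calls. With null male 1, 2 or 3 left out the gut epithelium median was 0.85, 0.73 and 0.72, against 0.78 with all 3. The stomach median was 0.82, 0.81 and 0.66, against 0.86, but over 17, 17 and 18 tested genes, against 20. Other lists moved further: the neuron median went from -0.41 to -0.06 without null male 3. With the 3 Ret-holding libraries labelled null added, the gut epithelium and stomach medians were 0.69 and 0.66. The hedgehog median was then 0.26, against 0.34, and the smooth muscle median 0.82, against 0.96. The crest progenitor and glia median was -0.12, against -0.58, and the neuron median 0.03, against -0.41. The part of Ret in the list medians was not tested.

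**Figure D1:**
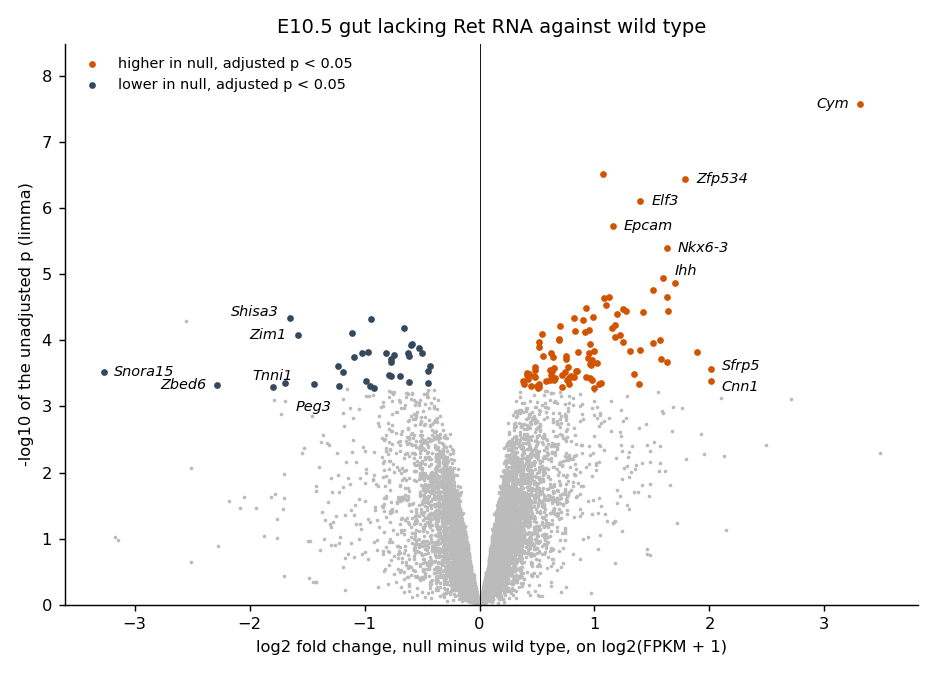
Each point is 1 of the 13036 genes tested at E10.5, by its log2 fold change (null minus wild type, on log2(FPKM + 1)) and the -log10 of its unadjusted p from limma on 3 null and 4 wild-type samples. Orange genes rose and dark blue genes fell at an adjusted p under 0.05, and Ret is left grey because it chose the libraries; most coloured points lie on the right, with Cym farthest out.

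The gene with the largest rise was Cym, which encodes chymosin, the milk-clotting protease of the infant stomach. It had 9.61, 13.8 and 9.77 FPKM in null males 1, 2 and 3, against 0.433, 0.304 and 0.0793 FPKM in wild-type females and 0.136, 0.131 and 0.243 FPKM in wild-type males. Every null library stood above every wild-type library, whose values were all under 1 FPKM. The log2 fold change was 3.31 (SE 0.152, adjusted p = 0.000346), and mean levels were 11 ± 2.35 FPKM in null and 0.206 ± 0.128 FPKM in wild type (SD, n = 3 and 4 samples). Cym passed in 18 of the 19 other fits that test it. All of these keep the same 3 null libraries, so the tally adds no support. The exception is the fit of all 6 libraries labelled null, with an adjusted p of 0.0564. The filter of 1 FPKM in 3 samples drops Cym when a null library is left out, so those fits say nothing of it. In the 3 libraries labelled null that hold Ret, Cym ran at 0.134, 0.395 and 12 FPKM.

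Of 20 tested stomach genes, 4 rose and none fell. Cym and Nkx6-3 are among these 4, though both were tested only because all 3 null samples reached 1 FPKM. The median log2 fold change of the 20 genes was 0.86, against 0.02 over all genes. Nkx6-3, a homeobox factor of the distal stomach, had 2.34, 2.32 and 2.77 FPKM in null libraries, against 0 to 0.348 FPKM in wild type (log2 fold change 1.63, SE 0.144, adjusted p = 0.00856). Sfrp5, a secreted Wnt antagonist of foregut endoderm, had 9.53, 8.87 and 10.7 FPKM in null libraries, against 2.49 to 3.04 FPKM in wild-type females and 0.411 to 1.55 FPKM in wild-type males. Its log2 fold change was 2.01 (SE 0.323, adjusted p = 0.043). Nkx6-2, a related homeobox factor, differed by 0.97 (adjusted p = 0.0403). Sox2, a factor of foregut epithelium, missed the threshold at 6.62 ± 0.913 FPKM in null, against 1.72 ± 0.992 FPKM in wild type (log2 fold change 1.55, SE 0.283, adjusted p = 0.052). Barx1, a factor of stomach mesenchyme, was singled out after its values were seen. It had 80.9, 68.7 and 110 FPKM in null libraries, against 38.3, 38.3 and 8.10 FPKM in wild-type females and 5.52, 4.29 and 0.651 FPKM in wild-type males. The groups did not overlap, yet the wild-type samples spread so widely that the adjusted p was 0.0965 (log2 fold change 3.48, SE 0.902). Within libraries labelled male, 8 stomach genes rose and 1 fell.

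Stomach RNAs varied widely between libraries elsewhere in the series too. At E12.5 Cym ran from 0.279 to 19.4 FPKM in the 5 null libraries without Ret, against 0.297 to 21 FPKM in the 6 wild-type libraries. Barx1 ran from 1.10 to 106 FPKM in those null libraries and from 0.229 to 164 FPKM in wild type. Both groups at E12.5 thus held libraries with almost none of these RNAs. The part of the dissected region in the E10.5 stomach values was not tested.

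Epithelial genes gave the most calls of any list. Of 28 tested gut epithelium genes, 8 rose and none fell, with 25 above 0 and a median of 0.78. Epcam, the epithelial adhesion molecule, had 43.5, 46.1 and 49.3 FPKM in null libraries, against 21.1, 20.5 and 21.1 FPKM in wild-type females and 21.7, 21.8 and 17.3 FPKM in wild-type males. The null values lie near one another and above every wild-type value, and the gap of 1.16 on the log2 scale (SE 0.0927, adjusted p = 0.00483) exceeds their spread. Tspan8, a tetraspanin of epithelial membranes, averaged 13.9 ± 2.25 FPKM in null and 3.18 ± 1.29 FPKM in wild type (log2 fold change 1.89, adjusted p = 0.0342). Cldn7 (1.18) and Cldn6 (0.82), tight junction claudins, St14 (1.08), a membrane serine protease, and its inhibitor Spint2 (0.82) rose as well on the log2 scale, with adjusted p of 0.0315, 0.0448, 0.0245 and 0.0264. Agr2, a disulphide isomerase of secretory cells, rose to 3.22, 4.03 and 1.95 FPKM in null libraries, against 0.118 to 0.871 FPKM in wild type (log2 fold change 1.58, adjusted p = 0.036). Krt8, a keratin chosen after its values were seen, did not follow them: null libraries had 50.9 to 62.1 FPKM, against 138 FPKM in wild-type female 3 and 22.7 to 39.1 FPKM in the other wild-type libraries. Within libraries labelled male, 21 of the 28 rose, where 205 of all 12787 genes tested did.

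Transcription factors of the endoderm rose in 4 of 18 tested genes and fell in none, with a median of 0.52. Elf3, an epithelial Ets factor, had 5.89, 5.70 and 6.72 FPKM in null libraries, against 1.47 to 1.91 FPKM in wild type (log2 fold change 1.40, SE 0.0999, adjusted p = 0.00256). Klf5, a Krüppel-like factor of intestinal crypts, had 8.55, 9.24 and 9.63 FPKM in null libraries, against 1.77 to 3.66 FPKM in wild type (1.51, adjusted p = 0.0245). Foxa1, a pioneer factor of endoderm, averaged 12 ± 2.07 FPKM in null and 4.29 ± 1.2 FPKM in wild type (1.31, adjusted p = 0.0342). The rise was not limited to foregut factors. Cdx2, the homeobox factor that specifies intestine, had 9.39, 9.10 and 10.3 FPKM in null libraries, against 3.47, 3.47 and 3.49 FPKM in wild-type females and 4.18, 4.33 and 5.96 FPKM in wild-type males (1.02, SE 0.159, adjusted p = 0.0391). Sox21, a Sox factor outside the lists and named after its values were seen, had 1.36 to 1.98 FPKM in null libraries, against 0.0311 to 0.336 FPKM in wild type (1.27, adjusted p = 0.0264).

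Both gut hedgehog ligands rose, as did Gli1 and forkhead genes of the mesenchyme they act on. Of 19 tested hedgehog genes, 5 rose and none fell; the median was 0.34. Shh had 14.6, 17.9 and 19.1 FPKM in null libraries, against 6.37, 6.10 and 4 FPKM in wild-type females and 5.74, 6.58 and 7.08 FPKM in wild-type males. Ihh had 5.83, 5.99 and 7.80 FPKM in null libraries, against 1.76, 1.63 and 0.905 FPKM in wild-type females and 1.3, 1.85 and 1.82 FPKM in wild-type males. For both ligands every null library stood above every wild-type library. Their log2 fold changes were 1.42 for Shh (SE 0.171, adjusted p = 0.0264) and 1.60 for Ihh (SE 0.164, adjusted p = 0.0214).

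On the responding side, Gli1, the transcription factor whose RNA serves as the usual readout of the pathway, had 40.5, 39.5 and 45.1 FPKM in null libraries. It had 20.1, 21.0 and 16.9 FPKM in wild-type females and 20.8, 21.2 and 26.3 FPKM in wild-type males. The groups did not overlap and the log2 fold change was 0.96 (SE 0.135, adjusted p = 0.0328). Foxf2, a forkhead factor of gut mesenchyme downstream of hedgehog, had 35.5, 35.5 and 47.1 FPKM in null libraries, against 8.48 to 16.1 FPKM in wild type (1.51, SE 0.211, adjusted p = 0.0328). Foxl1, which marks mesenchyme beneath the epithelium, averaged 4.79 ± 0.703 FPKM in null and 1.35 ± 0.6 FPKM in wild type (1.34, adjusted p = 0.0443). Foxf1, the partner of Foxf2, missed the threshold at 95.6 ± 24.7 FPKM in null and 39 ± 10.4 FPKM in wild type (1.28, SE 0.237, adjusted p = 0.052). Not every target moved so far: Ptch1, the receptor that hedgehog induces, had 25.5, 26.1 and 28.1 FPKM in null libraries, against 14.2 to 25.2 FPKM in wild type (0.35, adjusted p = 0.293), and Hhip, an induced inhibitor, differed by 0.68 (adjusted p = 0.0875). Both were picked for their roles after the values were seen. With labelled sex as a term 2 hedgehog genes rose, and among libraries labelled male 7 rose.

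**Figure D2:**
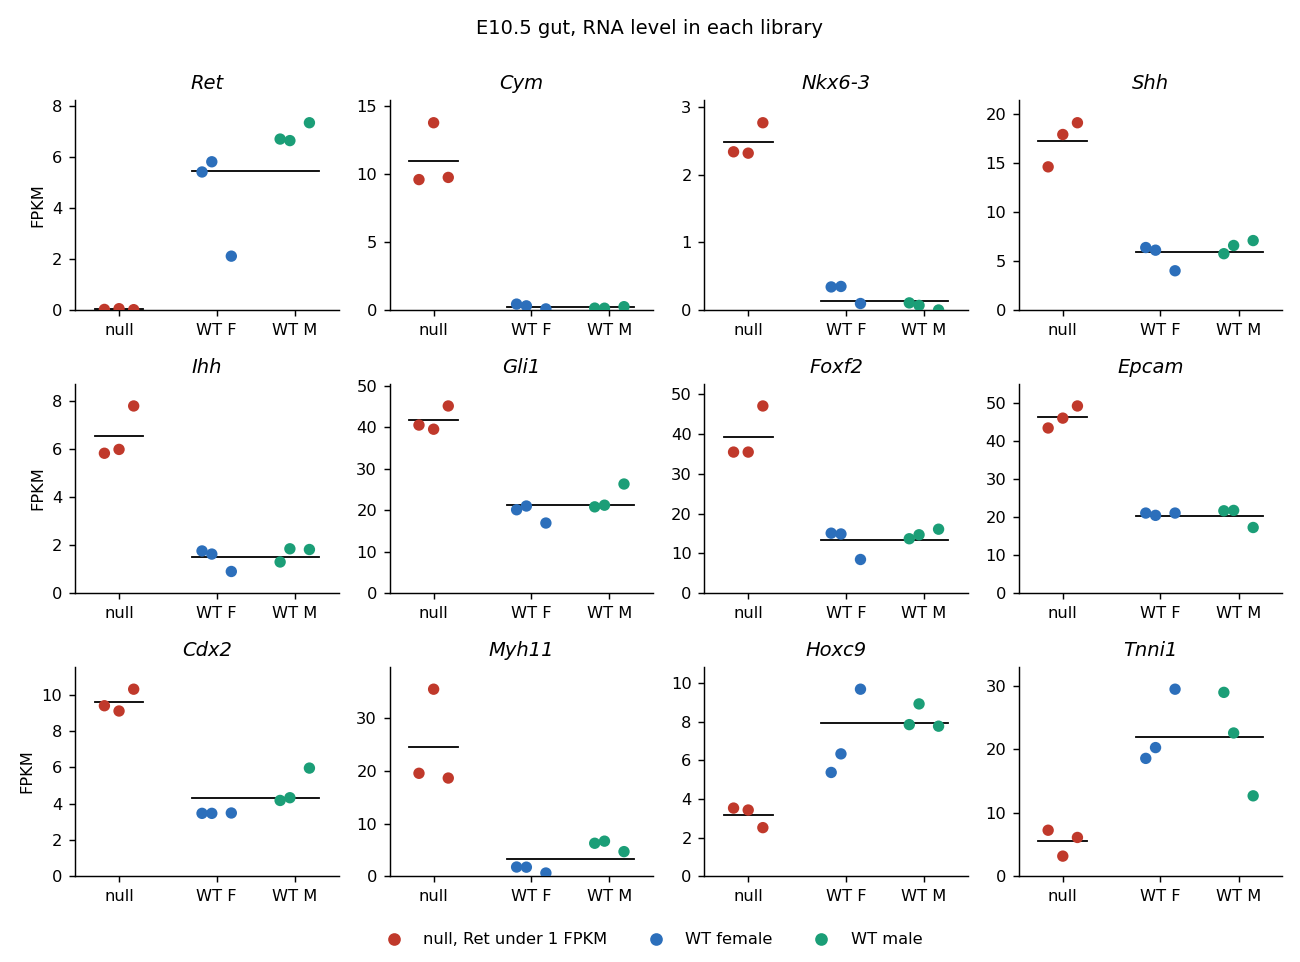
FPKM of 12 genes in each E10.5 library, with null libraries on the left (red), then wild-type females (blue) and wild-type males (green); black lines are means over 3 null and 4 wild-type samples and every axis starts at 0. Cym, Nkx6-3, Shh, Ihh, Gli1, Foxf2, Epcam, Cdx2 and Myh11 stand higher in every null library than in any wild-type library, and Ret (which chose the libraries), Hoxc9 and Tnni1 stand lower.

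As forkhead genes were among those that rose, promoters of the genes that rose were read for a forkhead motif. The sequences are RefSeq promoters (GRCm38.p6, the build of mm10, 250 bases before to 50 after the start), printed 5′ to 3′ on the gene's strand; capitals mark TGTTTAC or its reverse complement. Of the 103 genes that rose, 74 had promoters in the table, 91 in all, and 3 held the motif (3.3%), against 2.38% of 12274 promoters of tested genes. The share is close to the background. The GLI motif GACCACCCA, sought on both strands, stood in 0 of the 91, against 0.212% of the 12274. The 3 genes with a forkhead match were Tspan8, Foxa1 and Cdx2; Cym, with the largest rise, held none and is shown beside them.
Cym, chr3:107221683-107221982, minus strand: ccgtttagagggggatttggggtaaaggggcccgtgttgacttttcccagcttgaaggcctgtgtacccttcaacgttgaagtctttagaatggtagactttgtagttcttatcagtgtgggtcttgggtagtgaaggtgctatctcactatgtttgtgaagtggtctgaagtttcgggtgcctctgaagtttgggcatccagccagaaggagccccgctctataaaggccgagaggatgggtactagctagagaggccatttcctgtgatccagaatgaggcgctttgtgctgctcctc
Tspan8, chr10:115817034-115817333, plus strand: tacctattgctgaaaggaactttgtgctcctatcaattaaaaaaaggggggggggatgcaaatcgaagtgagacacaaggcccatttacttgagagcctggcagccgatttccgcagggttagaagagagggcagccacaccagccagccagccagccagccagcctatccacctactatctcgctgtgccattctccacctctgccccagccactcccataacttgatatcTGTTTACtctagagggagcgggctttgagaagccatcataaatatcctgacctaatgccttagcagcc
Foxa1, chr12:57546062-57546361, minus strand: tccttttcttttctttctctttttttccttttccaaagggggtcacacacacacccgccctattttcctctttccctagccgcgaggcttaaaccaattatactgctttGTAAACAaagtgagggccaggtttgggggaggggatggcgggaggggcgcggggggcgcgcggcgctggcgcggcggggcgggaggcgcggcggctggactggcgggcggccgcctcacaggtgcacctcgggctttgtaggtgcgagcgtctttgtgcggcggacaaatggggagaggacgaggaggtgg
Cdx2, chr5:147307200-147307499, minus strand: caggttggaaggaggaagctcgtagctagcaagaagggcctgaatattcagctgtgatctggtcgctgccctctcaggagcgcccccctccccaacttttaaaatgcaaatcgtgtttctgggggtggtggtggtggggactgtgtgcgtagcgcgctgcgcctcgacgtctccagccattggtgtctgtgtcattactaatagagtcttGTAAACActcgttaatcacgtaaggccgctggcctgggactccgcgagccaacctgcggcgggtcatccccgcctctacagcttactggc
A match is a string of letters and not a measured binding site.

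Contractile genes of smooth muscle stood higher by larger steps, but spread so much among wild-type samples that few passed. Of 18 tested genes 2 rose, none fell, 17 stood above 0 and the median was 0.96. Cnn1, calponin, had 19, 22.5 and 15.1 FPKM in null libraries, against 2.99, 3.06 and 1.78 FPKM in wild-type females and 5.41, 5.48 and 6.91 FPKM in wild-type males (log2 fold change 2.01, SE 0.343, adjusted p = 0.0457). Lmod1, leiomodin, differed by 1.18 (SE 0.152, adjusted p = 0.0292), and was tested only because all 3 null samples reached 1 FPKM. Myh11, smooth muscle myosin, had 19.5, 35.4 and 18.6 FPKM in null libraries, against 1.78, 1.75 and 0.645 FPKM in wild-type females and 6.27, 6.67 and 4.69 FPKM in wild-type males. The groups do not overlap, yet wild-type males lie above wild-type females, and the adjusted p was 0.0544 (2.71, SE 0.511). Mylk, the kinase of myosin light chain, and Acta2, smooth muscle actin, were at 0.0538 (2.10) and 0.0622 (1.60). Pdlim3, a PDZ and LIM protein of muscle outside that list, rose to 15.6 ± 0.357 FPKM in null, against 4.8 ± 1.77 FPKM in wild type (1.57, adjusted p = 0.0324). Within libraries labelled male, 9 of the smooth muscle genes rose, and their median was 0.63.

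**Figure D3:**
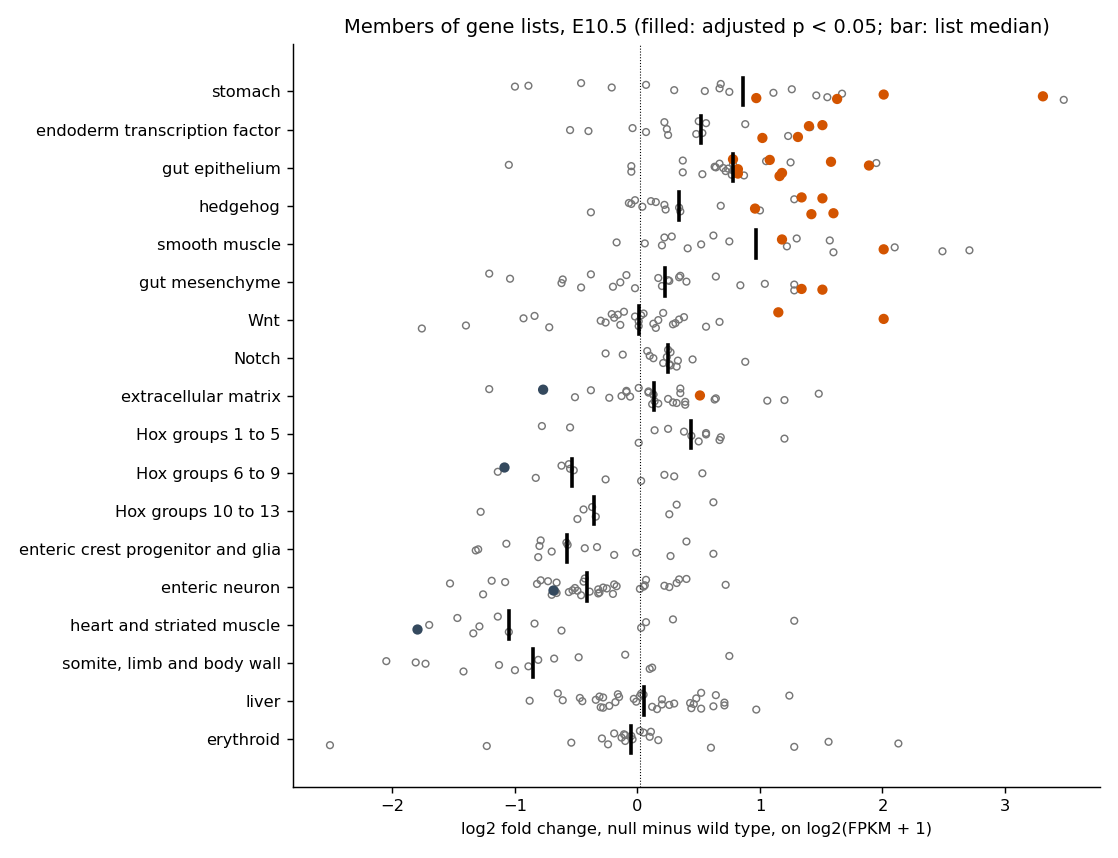
Each point is a tested member of a gene list by its log2 fold change at E10.5 (null minus wild type, on log2(FPKM + 1)); filled points passed an adjusted p of 0.05, black bars are list medians and the dotted line is the median of all genes, 0.02. Stomach, endoderm, epithelial, hedgehog and smooth muscle members lie mostly to the right, and crest, neuron, heart and body wall members mostly to the left with few filled points. Ret is not drawn.

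Most enteric crest and neuron genes lay below 0, and almost none passed. Of 16 tested crest progenitor and glia genes none rose or fell by the test, 13 stood below 0 and the median was -0.58. Among 38 neuron genes 1 fell, 28 stood below 0 and the median was -0.41. The neuron median was -0.06 without null male 3 and -0.10 without wild-type male 5, and the crest median was -0.32 without null male 3. Other fits moved the medians away from 0. Within libraries labelled male 2 crest genes fell, the crest median was -1.02 and the neuron median -0.87. With labelled sex as a term no crest gene fell, and the medians were -0.90 for crest and -0.94 for neurons. Ret marks these same cells, so choosing libraries by Ret can favour those with fewer of them, and in bulk gut fewer cells and less RNA per cell cannot be told apart.

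Crest RNAs were lowest in null male 3. Sox10, a factor of migrating crest, had 2.43, 3.86 and 0.798 FPKM in null males 1, 2 and 3, against 4.28, 4.58 and 1.43 FPKM in wild-type females and 7.26, 8.06 and 6.75 FPKM in wild-type males (log2 fold change -0.81, adjusted p = 0.364). Null males 1 and 2 stood above wild-type female 3, the wild-type library with the least Ret, so the groups overlap. Tubb3, a neuronal tubulin, followed the same order, at 6.6, 9.54 and 0.699 FPKM in null libraries, against 3.86 to 9.85 FPKM in wild-type females and 15.7 to 25.1 FPKM in wild-type males. Both markers are named as defining ones of their cell types, with their values known. At E12.5, in libraries not shared with E10.5, Sox10 fell by 1.88 on the log2 scale (adjusted p = 0.00363). Its difference between the stages did not pass (1.07, adjusted p = 0.321).

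Of 15 tested Ret signalling genes none passed besides Ret (median 0.05), and of 20 genes of its regulatory network and Hirschsprung disease only Cbl did besides Ret (median 0.01). Map1b, a microtubule protein of axons, was the neuron gene that fell: 6.94, 8.63 and 5.92 FPKM in null libraries, against 11 to 12.7 FPKM in wild type (-0.69, adjusted p = 0.0445). It passed in 8 of the 22 other fits. No neuron gene fell within libraries labelled male, with the sex of the RNA as a term or at a pseudocount of 0.1 FPKM. Cbl, the ubiquitin ligase of activated receptor tyrosine kinases, Ret among them, had 1.45, 1.92 and 0.664 FPKM in null libraries, against 4.55 to 11.3 FPKM in wild type (-1.69, SE 0.291, adjusted p = 0.0464). Gdnf, the ligand, averaged 11.9 ± 2.28 FPKM in null, against 4.95 ± 2.3 FPKM in wild type, with 2.11 to 4.11 FPKM in wild-type females and 6.77 to 6.94 FPKM in wild-type males (1.19, adjusted p = 0.103). Its co-receptor gene Gfra1 had 20.2, 22.7 and 25 FPKM in null libraries, against 1.93 to 13.9 FPKM in wild type (1.61, adjusted p = 0.119). Neither passed, though their groups did not overlap. Ednrb, the endothelin receptor of crest cells, overlapped between the groups (0.27, adjusted p = 0.547).

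**Figure D4:**
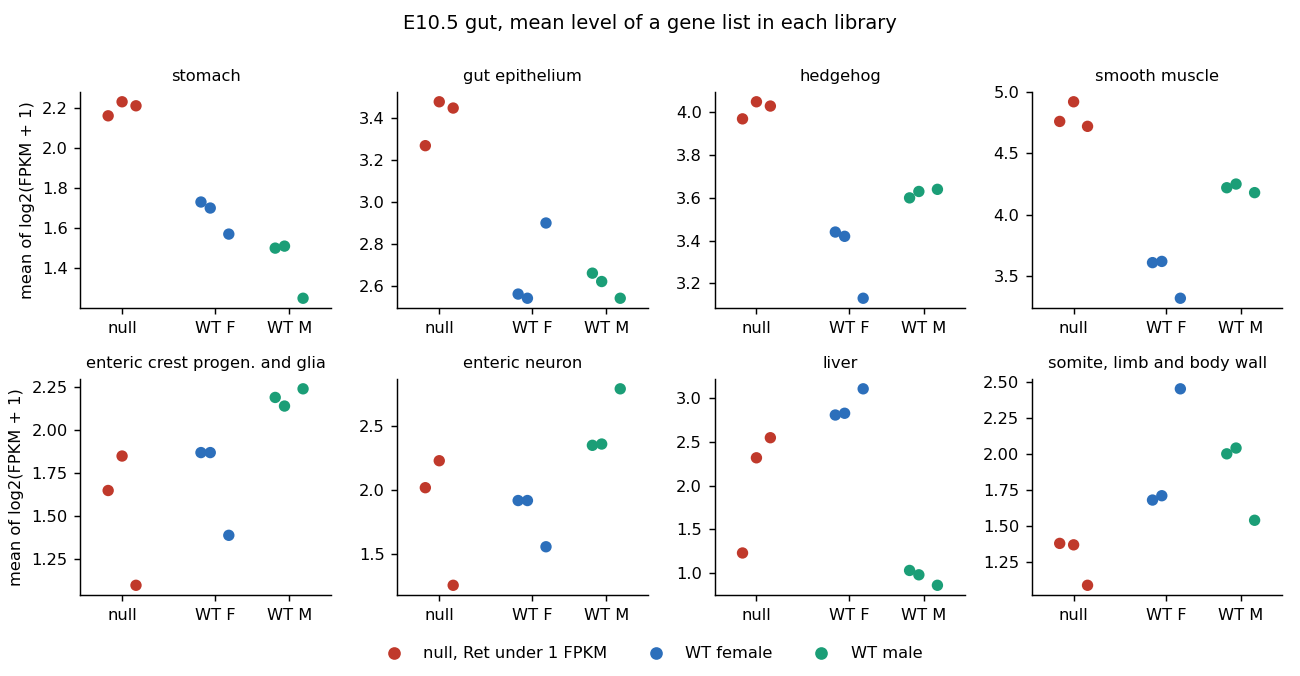
Mean of log2(FPKM + 1) over the members of 8 gene lists in each E10.5 library, null libraries on the left (red), then wild-type females (blue) and wild-type males (green); axes do not start at 0. Stomach, epithelium, hedgehog and smooth muscle means stand higher in every null library, crest and neuron means are lowest in null male 3, and liver means separate wild-type females from males while null libraries fall between or beside them.

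Position along the body was read from Hox genes, whose higher-numbered groups mark more posterior tissue. Of 12 tested genes of groups 6 to 9, Hoxc9 fell, 8 stood below 0 in all and the median was -0.54. Hoxc9 had 3.53, 3.43 and 2.52 FPKM in null libraries, against 5.37, 6.33 and 9.67 FPKM in wild-type females and 7.84, 8.91 and 7.76 FPKM in wild-type males (log2 fold change -1.09, SE 0.164, adjusted p = 0.0354). No gene of groups 1 to 5 passed; their median was 0.44 over 13 genes, and Hoxa2 stood at 9.09 ± 0.763 FPKM in null and 6.13 ± 0.621 FPKM in wild type (0.50, adjusted p = 0.0554). Groups 10 to 13 had no call among 8 genes and a median of -0.35, which the fit with the replicate number as a block turned to 0.15.

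Among the genes that fell, Zbed6, a transcription factor that sits wholly within Zc3h11a, had 1.79, 2.85 and 0.72 FPKM in null libraries, against 6.10 to 21.8 FPKM in wild type (log2 fold change -2.28, SE 0.397, adjusted p = 0.0466). How reads were divided between the pair is not stated by the labels. Tnni1, slow skeletal troponin I, averaged 5.54 ± 2.1 FPKM in null and 21.9 ± 7.39 FPKM in wild type (-1.80, adjusted p = 0.0484), and passed in 8 of the 22 other fits. Shisa3, an antagonist of Wnt and FGF signalling, had 9.61, 8.79 and 5.44 FPKM in null libraries, against 21.5 to 34 FPKM in wild type (-1.65, SE 0.204, adjusted p = 0.0264).

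Peg3 and Zim1, imprinted zinc finger genes 9527 bases apart on chromosome 7 (mm10, 6705960 to 6730419 and 6675443 to 6696432), both fell. Peg3 had 60.1, 65.2 and 42.7 FPKM in null libraries, against 212, 211 and 183 FPKM in wild-type females and 120, 126 and 110 FPKM in wild-type males (log2 fold change -1.44, SE 0.25, adjusted p = 0.0464). Its entry overlaps Peg3as, and without strand the pair cannot be told apart. Zim1 had 8.04, 9.43 and 5.14 FPKM in null libraries, against 28.4, 28.5 and 29 FPKM in wild-type females and 19.6, 20.6 and 19.8 FPKM in wild-type males (-1.58, SE 0.213, adjusted p = 0.0303). For both genes every null library was lowest and wild-type females stood above wild-type males.

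Mib1, the ubiquitin ligase of Notch ligands (-1.22), Clcn5, a chloride transporter (-1.23), N4bp2 (-1.19), Aff2 (-1.11), Dpf3 of the BAF chromatin complex (-1.02), the poly-ADP-ribose polymerase Tnks (-0.99) and the Ets factor Elk4 (-0.97) also fell, with adjusted p from 0.0302 to 0.0477. Of these, Aff2 averaged 1.36 ± 0.443 FPKM in null and 4.06 ± 0.564 FPKM in wild type. Snora15, a small nucleolar RNA, was listed at 0 in all 3 null libraries, but wild-type male 3 was listed at 0 too where its near-identical partner had 11.1 FPKM, so no fold change is given. Genes that fell had longer transcripts: the median longest GENCODE transcript was 6483 bases for 35 of 37 genes that fell, 2842 bases for 96 of 103 that rose and 3376 bases for 12234 of all tested. The part of transcript length in these calls was not tested.

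Other genes with large rises had varied roles. Fxyd3, a regulator of the sodium pump, averaged 8.51 ± 1.58 FPKM in null and 1.96 ± 0.579 FPKM in wild type (log2 fold change 1.70, adjusted p = 0.0219). Masp2, a serine protease of the complement system, averaged 2.62 ± 0.663 FPKM in null and 0.17 ± 0.198 FPKM in wild type (1.63, adjusted p = 0.0245). Ugt2b34, a UDP-glucuronosyltransferase, and Sec1, a fucosyltransferase, differed by 1.64 and 1.63 (adjusted p = 0.0264 and 0.0381). The entries of Fxyd3, Masp2 and Sec1 overlap Lgi4, Tardbp and Ntn5, and how reads were divided between them is not stated by the labels. Of 29 Wnt genes 2 rose, Sfrp5 and the receptor gene Fzd5 (1.15, adjusted p = 0.0292), with a median of 0.01. Among 30 extracellular matrix genes Lama5, a laminin chain of epithelial basement membrane, rose by 0.51 (adjusted p = 0.0496), and Tnc, tenascin C, fell by 0.77 on the log2 scale (adjusted p = 0.0443). Lama5 passed in 6 of the 22 other fits and Tnc in 11.

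Zfp534, a KRAB zinc finger gene on chromosome 4 (mm10, 147673503 to 147702553), had 4.07, 3.69 and 3.82 FPKM in null libraries, against 0.276 to 0.613 FPKM in wild type (log2 fold change 1.79, SE 0.115, adjusted p = 0.00156). Its neighbour Gm13154, 88301 bases away, had 1.56, 1.22 and 1.61 FPKM in null libraries, against 0.246 to 0.52 FPKM in wild type (0.86, adjusted p = 0.0342). The null values are tight and several times the wild-type ones. In the E10.5 libraries labelled null that hold Ret, Zfp534 ran at 3.55 to 4.14 FPKM, as high as in those without. At E12.5 it ran at 0.352 to 0.726 FPKM in null libraries and at 0.219 to 0.469 FPKM in wild type, and the difference between the stages passed (1.62, adjusted p = 5.02e-07). Zinc finger genes of such clusters resemble one another, so reads may be split among them. Around Ret itself, 1 of 135 tested genes within 10 Mb passed, Ptms, at 351 ± 11 FPKM in null and 231 ± 28.7 FPKM in wild type (0.61, adjusted p = 0.043).

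Liver RNA is given apart. The embryonic liver buds from the foregut, and its secreted proteins mark liver tissue carried into a dissection. None of 37 tested liver genes passed, and the median was 0.05. The groups did not overlap for 2 liver genes higher in null and 1 lower. That is a smaller share than the 23.7% without overlap over all genes tested. Alb and Afp are shown as the defining secreted proteins. Alb, serum albumin, had 0.612, 78.6 and 95.2 FPKM in null males 1, 2 and 3, against 122, 123 and 80.7 FPKM in wild-type females and 0.232, 0.262 and 0.553 FPKM in wild-type males. Afp, alpha-fetoprotein, had 5.45, 139 and 212 FPKM in null libraries, against 444, 440 and 633 FPKM in wild-type females and 3.32, 3.11 and 4.96 FPKM in wild-type males. Null male 1 sits with wild-type males, and null males 2 and 3 sit nearer to wild-type females. Over the 52 list members the mean of log2(FPKM + 1) ran from 1.23 to 2.55 in null libraries and from 0.86 to 3.11 in wild type.

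Liver RNA thus varied within both groups. Within libraries labelled male, where null males 2 and 3 stand far above wild-type males, the liver median was 1.45 and 2 genes rose. With the liver mean as a covariate, 1586 of 13036 genes passed (12.2%), with all 140 among them. Under that fit Cym stood at 3.31 (adjusted p = 0.000835), Shh at 1.43 (0.0132), Epcam at 1.15 (0.00329) and Myh11 at 2.76 (0.0147). In it 20 gut epithelium genes, 10 stomach genes, 10 hedgehog genes and 12 smooth muscle genes rose.

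Other tissues near the gut were read from their marker lists. Of 13 tested heart and striated muscle genes Tnni1 fell, and the median was -1.05. The wild-type side was uneven: Actc1, cardiac actin, had 5.58, 4.10 and 7.52 FPKM in null libraries, against 10.9 to 16.5 FPKM in wild-type females and 76.1, 75.4 and 12.2 FPKM in wild-type males (adjusted p = 0.167). None of 14 somite, limb and body wall genes passed; their median was -0.85, and their list mean ran from 1.09 to 1.38 in null libraries and from 1.54 to 2.45 in wild type. Among them Alx1, a factor of craniofacial and body wall mesenchyme, had 0.768, 0.806 and 0.125 FPKM in null libraries, against 2.2 to 8.14 FPKM in wild type (-1.73, adjusted p = 0.0623). The body wall list mean was thus lower in every null library, in the same libraries whose epithelial and smooth muscle means were higher. The part of tissue makeup in the calls was not tested.

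Lists of genes that change with embryonic age had no call. The median was 0.04 over 9 heterochronic genes and -0.05 over 21 erythroid genes. Their list means overlapped between the groups, at 4.02 to 4.21 in null and 3.98 to 4.57 in wild type for the first, and at 4.43 to 5.14 in null and 4.24 to 5.33 in wild type for the other. Groups did not overlap for 1 heterochronic gene higher in null and 2 lower, and for 1 erythroid gene higher and 1 lower. Over all genes tested they did not overlap for 23.7%, and 9.16% were lower in null without overlap. Lack of overlap alone thus does not set the list members apart. The lower ones include Hbb-bh1 and Lin28a. Hbb-bh1, an embryonic globin, had 107, 49.8 and 83.6 FPKM in null libraries, against 949, 920 and 1090 FPKM in wild-type females and 293, 257 and 133 FPKM in wild-type males (adjusted p = 0.114). Lin28a, an RNA-binding protein of early embryos, had 1.16, 1.09 and 0.986 FPKM in null libraries, against 5.32, 5.57 and 13.1 FPKM in wild-type females and 1.57, 1.25 and 1.84 FPKM in wild-type males (adjusted p = 0.235). Null libraries stood lowest for these genes, an order that their list means do not show. The 5 erythroid genes with the lowest p, all globins, split by kind, and none passed. The embryonic globins lay below 0 and the other globins above 0. Over the other fits the embryonic Hbb-bh1 (-3.29 to -1.31) and Hba-x (-1.59 to -0.85) stayed below 0. The others, Beta-s (1.50 to 2.68), Hba-a2 (0.51 to 1.73) and Hbb-b2, stayed above 0. An erythroid median near 0 therefore does not show that the list was unchanged. The part of developmental age was not tested. Cell cycle genes had no call among 28 and a median of -0.06, and neither macrophage nor endothelial genes had a call.

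The question of whether the differences are also seen later was put to E12.5, with 5 null libraries without Ret and 6 wild-type libraries that share no sample with E10.5. In the fit of all stages 53 of 14246 genes passed at E12.5 (0.372%). Of the 139 genes other than Ret that passed at E10.5, 1 passed at E12.5, Gng2, a G protein gamma subunit (-0.29, adjusted p = 0.013), and 81 had the same sign. The 103 that rose had a median log2 fold change of 0.92 at E10.5 and 0.05 at E12.5, against 0.01 at E12.5 over all genes. The 36 that fell had -0.87 at E10.5 and -0.03 at E12.5. Their E10.5 values are those that chose them, so they can overstate the E10.5 effect and any difference between the stages.

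The difference between the stages passed for 57 of 14246 genes (0.4%), 25 of them among the 139. Foxf2 differed by 1.53 (adjusted p = 0.0152), Gli1 by 0.96 (0.0242), Foxl1 by 1.44 (0.00415) and Klf5 by 1.52 (0.0168). Shh and Ihh came close, at 1.27 (0.0608) and 1.70 (0.0552). At E12.5 Gli1 ran at 20 to 31.5 FPKM in null libraries and at 22.9 to 31.5 FPKM in wild type, so the groups overlapped throughout. Cym differed by 3.97 with an adjusted p of 0.228, as its E12.5 levels spread widely in both groups. With labelled sex as a term 11 genes passed, and with null male 1, 2 or 3 left out 16, 33 and 5 did. At E14.5, 40 of the 139 genes passed, 20 of them with the sign they had at E10.5, where 29.6% of all genes passed.

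**Figure D5:**
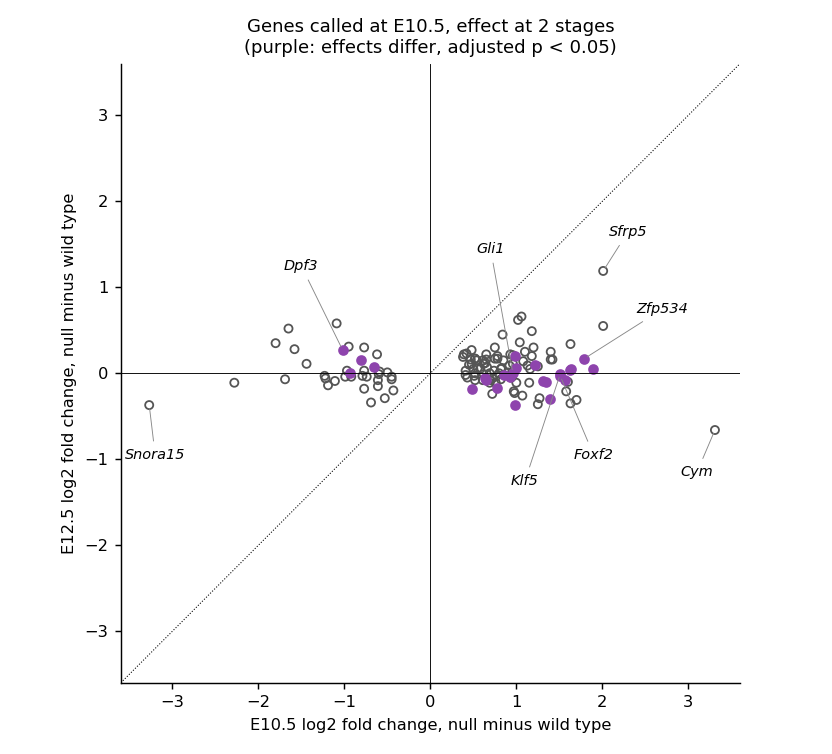
Each point is 1 of the 139 genes other than Ret called at E10.5, by its log2 fold change (null minus wild type) at E10.5 and at E12.5; the dotted line marks equal effects and purple points differ between the stages at an adjusted p under 0.05. Most points lie near 0 at E12.5, with Sfrp5 (1.19) highest and Cym (-0.66) lowest.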

How the data were processed

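Poly(A)-selected RNA from dissected gut was sequenced on a HiSeq 2000. The authors deposited FPKM per gene and library with an interval and a status per value, per the file headers. The tools named are TopHat2, Cufflinks, Cuffdiff and Picard, with build mm10, per the submitters' processing notes. Their versions, the strand setting and the scaling between libraries were not given in the sources used here. FPKM are not counts, so no count test was run, and depth was estimated from interval width. Near-identical libraries were averaged.

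Genes with at least 1 FPKM in 3 samples and a good status in every library were tested with limma 3.58.1 (R 4.3.3; trended variance, Benjamini-Hochberg adjustment over all genes, threshold 0.05) on log2(FPKM + 1). Stages were compared by an interaction term in a fit of all stages. The 3 E10.5 libraries labelled null that hold Ret were left out of the main comparison, and some genes are not reported here. Named genes are Ret, up to 15 rising and 15 falling called genes with the largest fold change and no overlap, and up to 5 members of each list by p. Those outside the rule, among them Barx1, Krt8, Ptch1, Hhip, Sox10, Tubb3, Ednrb, Alb, Afp, Cldn6, Ddx3y, Sox21, Gm10653, Gm13154, Gng2 and Ptms, were chosen after their values were seen. The members and lists were chosen with earlier results of these data known. Other filters, pseudocounts, scalings, sex terms, sample sets and left-out samples were tried. Figures used matplotlib 3.10.9.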

Additional observations from a re-analysis of the deposited data

Results flagged for a closer look

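Among the 4 wild-type samples, 13 genes had a sample far from the others; chance alone flags some groups at this threshold. Wild-type female 3 was lowest for Tspan8 and 6 others: it had 1.29 FPKM of Tspan8, 16.9 of Dusp6, 2.36 of Gpr20, 13.3 of Rxra, 4.51 of Osr1, 1.99 of Cx3cr1 and 21.6 of Wt1. The mean of wild-type females 1 and 2 was highest for Clcn5 (8.56 FPKM), N4bp2 (19 FPKM) and Mnx1 (0.651 FPKM), and lowest for Hoxa10 (6.51 FPKM). Wild-type male 5 was highest for Agr2, at 0.871 FPKM, and lowest for the embryonic globin Hba-x, at 568 FPKM.

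The rule named 178 genes by their E10.5 values, a choice that can overstate a difference between the stages. Over all 14246 genes 0.4% passed the interaction test. For 17 named genes the null effect at E10.5 differed from that at E12.5 by that test, given as E10.5 minus E12.5 on the log2 scale. Epithelial and endoderm genes were Tspan8 (1.84), Klf5 (1.52) and Foxa1 (1.41). Mesenchymal and hedgehog genes were Foxf1 (1.50), Foxf2 (1.53), Foxl1 (1.44) and Gli1 (0.96). Gfra1 (2.09), Pdlim3 (1.66), Zfp534 (1.62), Ugt2b34 (1.59), Sec1 (1.58), the Notch ligand gene Dll1 (1.23) and Hoxb3 (0.86) also differed upward. Alx1 (-2.12), Dpf3 (-1.29) and the Kit ligand gene Kitl (-0.96) differed downward.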

How the results depend on the processing

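Against 140 genes called, the fits called 62 with a pseudocount of 0.1 FPKM, 86 with a filter of 5 FPKM, 89 when library sums were made equal, 67 with labelled sex and 74 with the sex of the RNA as a term; of the last 3, 77, 43 and 64 are among the 140. With near-identical libraries counted separately 882 passed, among libraries labelled male 299, with all 6 libraries labelled null 326 and with the liver covariate 1586. With the replicate number as a replicate block (and every library counted) 116 passed. Same-numbered null and wild-type samples correlated by -0.00 to 0.06, and differently numbered ones by -0.16 to 0.20. These few values show no pairing by number but cannot exclude it, as near-identical libraries carry different numbers. Leaving out 1 sample gave 0 to 172 genes. The 57 genes that differed between E10.5 and E12.5 became 179 with every library, 11 with labelled sex and 5 to 93 with 1 sample left out. None of 47 named genes called other than Ret changed sign; 11 of 130 not called did. Under the replicate block Hoxd11 (0.10), Hoxd10 (0.14), Hoxa10 (0.15) and Trp63 (0.01) turned positive. Trp63 (-0.22 to 0.07 with 1 sample left out) also did with a pseudocount of 0.1 FPKM (0.02) and without null male 1 (0.07) or 3 (0.01), and Etv5 (-0.18 to 0.04) without null male 2 (0.00) or wild-type females 1 and 2 (0.04). With labelled sex, and among libraries labelled male, Arid3a (0.01), Ddx3x (0.01), Kdm6a (0.05), Kdm5c (0.10) and Eif2s3x (0.22) did, and Xist did with labelled sex (1.97). Where no fewer samples were used, the cause was not tested. Every null library was labelled male, so labelled sex rests on the wild-type samples. The sex of the RNA varies on both sides, as null male 1 held female RNA.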
